A study of Mus musculus with 3 samples.

Results

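Genes of extracellular purine metabolism, *Entpd1*, *Nt5e*, *Adora2a*, *Adora2b*, *Ada*, *Dpp4* and *Cd38*, were followed through the lymphocytes of a mouse tumor. They were chosen by symbol as 7 of the 32285 genes in the count tables, and all 7 were found. ATP that leaves stressed or dying cells is an inflammatory signal, and it is dismantled at cell surfaces: CD39, encoded by *Entpd1*, removes phosphates from ATP and ADP to give AMP, and CD73, encoded by *Nt5e*, turns AMP into adenosine. Adenosine then acts on G-protein-coupled receptors, of which A2a (*Adora2a*, high affinity) and A2b (*Adora2b*, low affinity) raise cyclic AMP and restrain lymphocytes, until adenosine deaminase (*Ada*), which can dock on CD26 (*Dpp4*) in humans, converts it to inosine. CD38 consumes NAD and is the entry to another route to AMP. In tumors CD39 is known on regulatory T cells and on T cells with chronic antigen exposure.

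The cells were tumor-infiltrating lymphocytes (TILs) from WT C57BL/6 Kaede mice, whose cells make a green protein that becomes red under violet light. Subcutaneous MC38-Ova tumors, an ovalbumin-bearing colon carcinoma line, were started with 250000 cells, photoconverted on day 13 and taken on day 15, and all 3 libraries came from isotype control treated tumors. The 2 Kaede-green libraries (Kaede-green 1 and 2) hold cells that entered the tumor within the 48 h after photoconversion and the Kaede-red library holds cells that were already there. Live CD45+ TER119- cells of 1 color were sorted without CD11b+ NK1.1- myeloid cells. The study's methods give an age range for the project as a whole and sex matching within an experiment, while the age and sex of the mice behind these libraries and the number of mice per library are not given in the sources used here. With 1 Kaede-red library the color and the library cannot be told apart.

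The 3 droplet libraries counted unique molecular identifiers (UMIs), 1 for each captured mRNA molecule. They held 87193225 to 175848894 UMIs in 10498 to 12327 cells, and the median UMIs per kept cell were 6628 and 8512.5 for the Kaede-green libraries (1 and 2) and 12076 for Kaede-red. Classes were set by raw UMIs: NK cells by *Ncr1* without more than 1 UMI of *Cd3e*; CD8 T cells by *Cd3e*, *Cd8a* and *Cd8b1*; CD4 T cells by *Cd3e* and *Cd4* without *Foxp3*; regulatory T cells (Tregs) by *Cd3e* and *Foxp3*; and γδ T cells by *Cd3e* and *Cd163l1*. Left out were 941 cells that met more than 1 rule and 131 with markers of other lineages. The 3 libraries then gave 8384 NK cells, 9251 CD8 T cells, 1046 CD4 T cells, 1750 Tregs and 616 γδ T cells. These were 21047 of the 31943 kept cells, and most of the others met none of the rules. The study set clusters of innate lymphoid cells and NKT cells apart from its NK cells. The NK rule used here does not fully separate them, and their number among the NK cells was not counted. NK cells were split by the integrins *Itgam* (CD11b) and *Itga1* (CD49a), each state with at least 1 UMI of its integrin and none of the other, and CD8 T cells by *Havcr2*, which encodes the checkpoint receptor TIM-3. Where 3 values are given in a row without names, they belong to Kaede-green 1, Kaede-green 2 and the Kaede-red library, in this order. Levels are CPM, the UMIs of a gene scaled to a total of 1000000 UMIs for a class in a library. The marker lists include the gate genes, so their sums were in part set by the rules. Summed levels of the NK list were 4248 to 5222 CPM in NK cells and 340.3 to 1553 CPM in the T cell classes, and the γδ list was 4236 to 6134 CPM in γδ T cells and at most 779 CPM in the other classes. The Treg list, 4452 to 5342 CPM in Tregs, was 1385 to 2402 CPM in CD4 T cells and higher there in Kaede-red, so some cells without a *Foxp3* UMI carried other Treg genes. The CD4 list, mostly genes of all αβ T cells, did not separate CD4 T cells (2576 to 2953 CPM) from Tregs (2542 to 3063) or CD8 T cells (2482 to 2794). Of genes that no gate used, *Eomes* averaged 168 CPM in NK cells and at most 28.2 in the T cell classes, *Ikzf2* 1377 CPM in Tregs and 469 in CD4 T cells, *Trdc* 2291 CPM in γδ T cells and at most 83.1 elsewhere among the 5 classes, and *Cd40lg* 70.3 CPM in CD4 T cells and at most 4.52 elsewhere among them.

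*Entpd1*, on chr19:40612366-40741602 of GRCm38 on the plus strand, has 2 annotated starts in RefSeq with promoters far apart. The count tables come from the 3′ end of transcripts, so every value of *Entpd1* given here joins both starts. The 250 bases before each start, at chr19:40612116-40612365 and chr19:40659520-40659769 of GRCm38.p6 and both on the plus strand, are shown because *Entpd1* passed the test in 4 of the 5 comparisons of classes and differed between colors in opposite directions. Capitals mark a GGAAAA core, the letters at the center of NFAT sites, which 20.4% of 32851 such windows of the genome held on either strand.
Entpd1 start 1: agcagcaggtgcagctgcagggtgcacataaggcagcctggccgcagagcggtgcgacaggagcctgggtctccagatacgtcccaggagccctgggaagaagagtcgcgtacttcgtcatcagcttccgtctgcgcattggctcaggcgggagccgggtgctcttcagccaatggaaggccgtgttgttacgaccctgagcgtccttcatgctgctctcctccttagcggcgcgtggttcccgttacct
Entpd1 start 2: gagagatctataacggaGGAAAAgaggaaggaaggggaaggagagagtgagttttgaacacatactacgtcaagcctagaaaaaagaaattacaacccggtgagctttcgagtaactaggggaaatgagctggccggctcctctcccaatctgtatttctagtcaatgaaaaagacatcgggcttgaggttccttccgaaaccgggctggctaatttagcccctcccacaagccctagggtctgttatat
Neither window held the cyclic AMP response element TGACGTCA, the hypoxia response core ACGTG or the RUNX core TGTGGT on either strand, letters found in 1.55%, 16.6% and 14% of the windows. The other members lie on chr9:88327197-88372092 (*Nt5e*, plus), chr10:75316877-75334784 (*Adora2a*, plus), chr11:62248984-62266453 (*Adora2b*, plus), chr2:163726584-163750239 (*Ada*, minus), chr2:62330073-62412231 (*Dpp4*, minus) and chr5:43868553-43912375 (*Cd38*, plus). *Entpd1* and *Cd38* overlap other annotated genes on their own strand, 3 and 1 of them, so reads there may have been assigned to neither.

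Among the 5 lymphocyte classes the mRNA of the ectoenzyme CD39 was highest in Tregs. Summed over Tregs, *Entpd1* stood at 94.7, 114 and 132 CPM, a mean of 113 ± 18.4 CPM (SD, n = 3 libraries). CD4 T cells followed at 34.7, 47.6 and 69.0 CPM and CD8 T cells at 29.5, 37.2 and 54.2 CPM, and these neighbors overlapped over the libraries although CD4 T cells were the higher in each. NK cells held 23.2, 19.6 and 6.86 CPM and γδ T cells 6.73, 20.2 and 4.94 CPM, which overlapped. Every library of Tregs was above every library of the other 4 classes. The few sorted myeloid cells (12, 44 and 35) held 12.3, 30.6 and 137 CPM. The Kaede-red value rested on 67 UMIs, and its exact 95% interval of 106 to 174 CPM covered the 132 CPM of the Tregs.

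The enzyme of the next step was distributed differently. *Nt5e* was at 121, 113 and 91.4 CPM in CD4 T cells, all above the 84.0, 74.1 and 82.9 CPM of Tregs. From Tregs downward each neighbor overlapped the next: γδ T cells averaged 64.8 ± 8.84 CPM, CD8 T cells 59.5 ± 9.76 and NK cells 49.0 ± 8.91 (SD, n = 3). Its means spanned 49.0 to 108 CPM over the 5 classes, against 10.6 to 113 CPM for *Entpd1*. No class was without CD73 mRNA, while γδ T cells combined *Nt5e* near the level of CD8 T cells with little *Entpd1*.

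**Figure D1:**
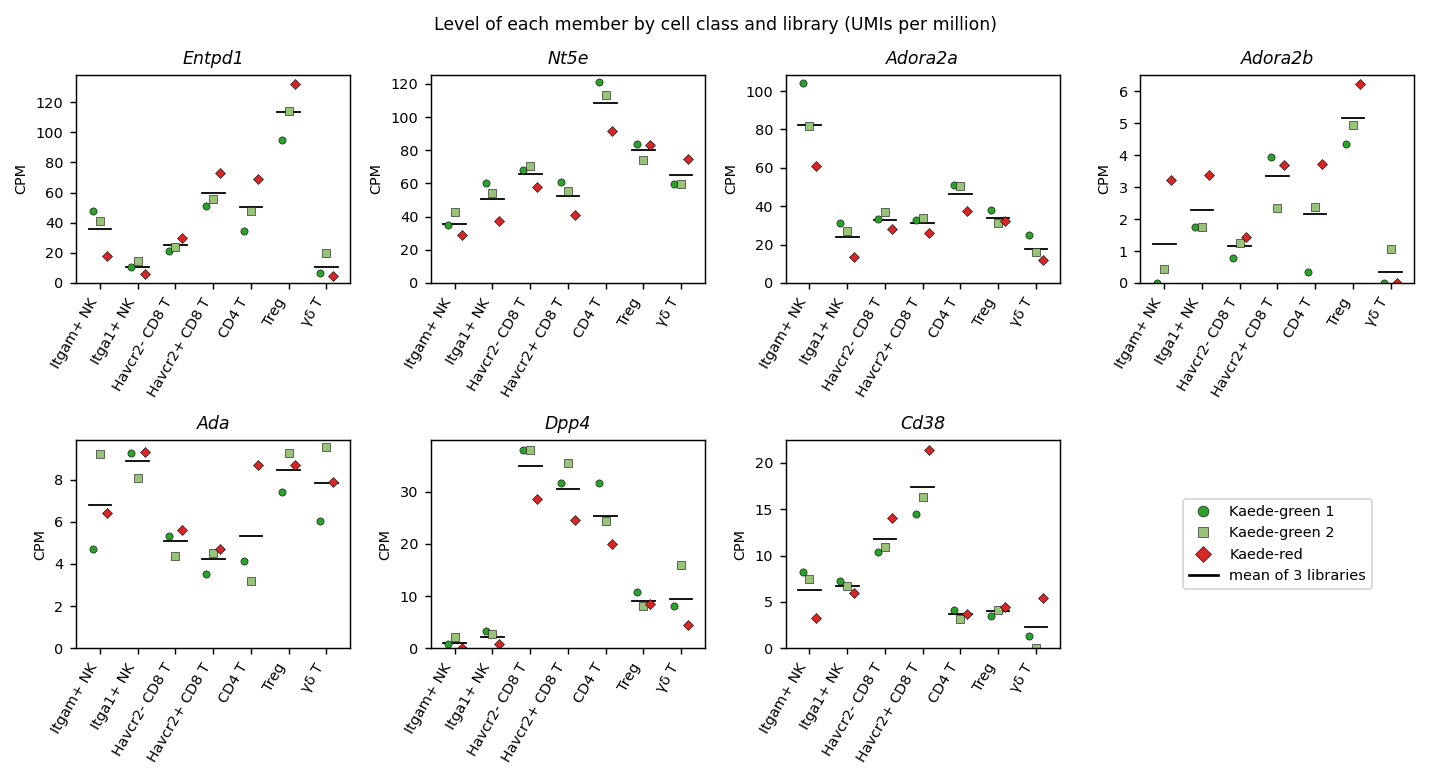
Level of each of the 7 genes in CPM (linear axes from 0) in 7 classes, with 1 symbol per library and a bar at the mean of 3 libraries. *Entpd1* peaks in Tregs at 94.7 to 132 CPM, *Nt5e* in CD4 T cells at 91.4 to 121 CPM and *Adora2a* in *Itgam*-positive NK cells at 61.2 to 104 CPM.

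Receptors for adenosine were carried by NK and T cells in unlike amounts. *Adora2a*, the A2a receptor, was at 70.8, 51.2 and 17.9 CPM in NK cells, the widest range between libraries among the 5 classes, and at 51.2, 50.5 and 37.3 CPM in CD4 T cells. Tregs averaged 33.9 ± 3.74 CPM, CD8 T cells 32.0 ± 4.50 and γδ T cells 17.6 ± 6.67 (SD, n = 3). Tregs and CD8 T cells overlapped, and γδ T cells lay below the CD8 T cells in every library. *Adora2b*, the A2b receptor, was scarce in every class: Tregs had 4.37, 4.96 and 6.22 CPM, above the other 4 classes in each library, and NK cells averaged 2.31 ± 0.886 CPM, CD4 T cells 2.15 ± 1.70 and CD8 T cells 2.03 ± 0.603 (SD, n = 3). A single *Adora2b* UMI was counted in the γδ T cells of the 3 libraries, and with 0 UMIs in Kaede-green 1 and Kaede-red the limit there was 2.02 and 1.48 CPM (3 UMIs). The sorted myeloid cells held 30.7, 61.3 and 149 CPM of *Adora2b*, far above any lymphocyte class.

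*Ada* and *Cd38* were low in the 5 classes, and among these classes *Dpp4* was highest in the conventional CD8 and CD4 T cells. *Ada* averaged between 4.79 ± 0.330 CPM in CD8 T cells and 8.46 ± 0.949 in Tregs (SD, n = 3), and the libraries of each class overlapped those of the next in order. *Dpp4*, the CD26 gene, was at 36.2, 36.9 and 26.3 CPM in CD8 T cells and 31.6, 24.3 and 19.9 CPM in CD4 T cells, 10.7, 8.09 and 8.54 CPM in Tregs, and 1.93, 3.61 and 0.773 CPM in NK cells. The conventional T cells and the NK cells lay at the opposite ends of this order with no overlap. *Dpp4* was not confined to T cells: the sorted myeloid cells averaged 52.2 ± 27.5 CPM and plasmacytoid dendritic cells 39.6 ± 10.9 (SD, n = 3). B cells averaged 23.5 ± 25.7 CPM, but this mean gives the 2 B cells of Kaede-red the same weight as the 162 and 80 of the Kaede-green libraries. *Cd38* was at 11.5, 13.1 and 18.2 CPM in CD8 T cells, at 7.47, 7.30 and 6.23 CPM in NK cells and at 3.49 to 4.49 CPM in Tregs. B cells and plasmacytoid dendritic cells, which are known for CD38, had more: B cells of the Kaede-green libraries were at 63.0 and 76.4 CPM and plasmacytoid dendritic cells of the 3 libraries at 48.9 to 77.9 CPM, above every NK and T cell class. Kaede-red had only 2 B cells, with 1 *Cd38* UMI.

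Cells were also counted 1 by 1 after each was thinned to 2000 UMIs, because the classes differ in depth. An *Entpd1* UMI was then seen in 20.6% of Tregs (exact 95% interval 18.7 to 22.6; 56.6% without thinning), 8.89% of CD4 T cells, 7.97% of CD8 T cells, 3.88% of NK cells and 1.30% of γδ T cells. For *Nt5e* the shares were 19.9% of CD4 T cells (17.5 to 22.4; 41.5% without thinning), 16.6% of Tregs, 11.5% of CD8 T cells, 10.1% of γδ T cells and 9.24% of NK cells, against 0.604% of plasmacytoid dendritic cells, in which *Nt5e* was near absent. Without thinning the *Nt5e* order turned, at 43.9% of Tregs, 41.7% of CD8 T cells, 33.0% of NK cells and 26.8% of γδ T cells, so that Tregs and CD8 T cells were no longer below CD4 T cells. These shares pool the 3 libraries. The pooled thinned order of the classes was that of the CPM for *Entpd1*, and for *Nt5e* CD8 T and γδ T cells, whose CPM overlapped, changed places. By library, thinned *Entpd1* was seen in 158 of 2585, 122 of 2634 and 45 of 3164 NK cells. In CD8 T cells it was seen in 122 of 2235, 206 of 3072 and 409 of 3942. In Kaede-green 1 the NK share was thus the higher, unlike the CPM, and the gap was widest in Kaede-red. Before thinning the median cell held 7029 to 10070 UMIs in Tregs, 5757 to 6977 in CD4 T cells and 11424 to 14369 in plasmacytoid dendritic cells, lowest and highest library. All these intervals cover counting error only.

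Where CD39 and CD73 sit on the same cell, ATP can be taken to AMP and on to adenosine at its surface. After thinning, *Entpd1* and *Nt5e* were seen together in 3.26% of Tregs (57 of 1749 cells, 2.48 to 4.20), 1.82% of CD4 T cells (1.10 to 2.82), 0.833% of CD8 T cells (0.658 to 1.04), 0.334% of NK cells (0.222 to 0.482) and 0.162% of γδ T cells (0.00411 to 0.901). The Treg share was 3.78%, 2.46% and 3.77%. These values were close to the product of the 2 single shares, which was 3.42% in Tregs and 0.918% in CD8 T cells. Among Tregs *Nt5e* was seen in 15.8% of the cells with an *Entpd1* UMI and in 16.8% of the others, so at this depth the ectoenzymes were spread over Tregs without visible preference for the same cell.

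**Figure D2:**
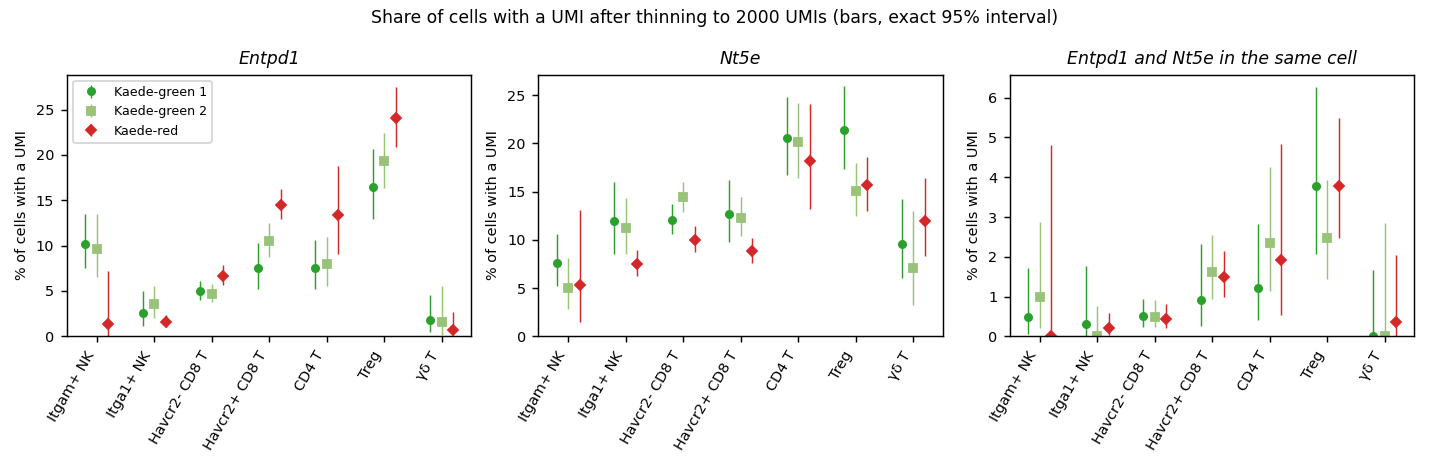
Share of cells (percent) with a UMI of *Entpd1*, of *Nt5e* and of both after thinning each cell to 2000 UMIs, in 7 classes, with 1 symbol per library and exact 95% intervals as bars. At this depth cells with both are most frequent in Tregs, 2.46% to 3.78% over the libraries.

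NK cells were compared between the *Itga1*-positive state, which is more frequent in Kaede-red, and the *Itgam*-positive state of conventional NK cells. These states held 2319 and 797 of the 8384 NK cells. The comparison left out 5150 cells with a UMI of neither integrin and 118 with both. Cells with neither held 21.8, 18.3 and 7.75 CPM of *Entpd1* and 76.9, 57.1 and 23.5 CPM of *Adora2a*. *Entpd1* was lower with *Itga1*: 10.3, 14.7 and 6.21 CPM, against 48.1, 41.4 and 17.7 CPM with *Itgam*. The groups did not overlap, and the log2 fold change was -1.69 ± 0.19 (SE; edgeR quasi-likelihood test, adjusted p = 2.62e-05), or 3.22-fold lower. *Adora2a* fell with it, from 104, 81.8 and 61.2 CPM in *Itgam*-positive cells to 31.1, 26.9 and 13.8 CPM, without overlap (-1.69 ± 0.13, adjusted p = 1.17e-06). The first ectoenzyme and the A2a receptor were thus both a smaller part of the mRNA with *Itga1*. Among thinned cells *Adora2a* was seen in 20%, 15.9% and 12% of *Itgam*-positive and 8.65%, 5.99% and 3.55% of *Itga1*-positive cells, lower with *Itga1* in each library, as it was without thinning (39.9%, 38.9% and 36.0% against 27.6%, 29.5% and 24.5%). *Entpd1* was seen in 10.2% and 9.63% of *Itgam*-positive against 2.56% and 3.51% of *Itga1*-positive cells in the Kaede-green libraries. In Kaede-red its share was not lower with *Itga1*, at 1.58% (exact 95% interval 1.01 to 2.34) against 1.33% (0.0338 to 7.21, 1 of 75 cells), and without thinning at 11.7% against 10.7%, although its CPM was. Shares pooled over libraries are not given for this split, since *Itgam*-positive cells numbered 421, 301 and 75 and *Itga1*-positive cells 312, 484 and 1523.

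*Nt5e* went the other way between the NK states by a smaller amount. It was 60.2, 54.5 and 37.3 CPM in *Itga1*-positive cells and 35.2, 42.7 and 29.0 CPM in *Itgam*-positive cells, higher with *Itga1* in each library although the groups overlapped (0.60 ± 0.13, adjusted p = 0.00305). Without Kaede-green 1 the change was 0.44 and no longer passed (adjusted p = 0.0808), and without the library block it was 0.52 (adjusted p = 0.0686). *Ada* (0.41 ± 0.30, adjusted p = 0.318) and *Cd38* (0.03 ± 0.29, adjusted p = 0.966) did not pass, and *Adora2b* and *Dpp4* had too few UMIs to be tested. Of the 5 members tested 3 passed, where 37.6% of the 9450 genes tested passed in this comparison.

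Depth and cell cycle genes moved with the NK split. The median *Itga1*-positive cell held 9446, 11956 and 24450 UMIs against 5341, 6689 and 6658 UMIs with *Itgam*, so a level in CPM is not a number of molecules per cell, and the cycling list (*Mki67* among its 3 genes) was at 139.7 to 376 CPM in them against 30.6 to 55.4 CPM in *Itgam*-positive cells. *Entpd1* and *Adora2a* remained called among cells of 5000 to 20000 UMIs and without cells carrying *Mki67* or *Top2a*. The myeloid list of 8 genes was at 79.4 to 126 CPM in *Itgam*-positive and 45.6 to 85.9 CPM in *Itga1*-positive cells with *Adgre1* at 0 in the former, against 871 to 14838 CPM in myeloid cells, and its part in the result was not tested.

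Of 89 other genes of adenosine, purine nucleotide, NAD and cyclic AMP handling, 45 could be tested in the NK split, 2 were higher with *Itga1* and 15 lower (1835 and 1718 of the 9450 genes tested), a share called near that of all genes, with a median log2 fold change of -0.16 against -0.01 over all genes. The lower genes included the ATP channel gene *Panx1* (-1.13 ± 0.13, adjusted p = 3.6e-05), the ectoenzyme gene *Enpp4* (-1.09 ± 0.17) and the cyclic AMP phosphodiesterase gene *Pde8a* (-1.21 ± 0.35). *Crem*, *Nr4a1*, *Nr4a2* and *Nr4a3*, which cyclic AMP and other signals are known to induce, were also among the 15. The nucleoside transporter gene *Slc29a1*, whose product carries adenosine across the membrane, was higher (1.20 ± 0.19, adjusted p = 0.000355), and so was *Pnp*, which acts on inosine and has a near copy, *Pnp2*, in the mouse genome.

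CD8 T cells with *Havcr2*, a receptor of chronically stimulated cells, differed from those without in 5 of the 7 members, where 27.9% of the 12061 genes tested passed. *Entpd1* was 51.1, 55.8 and 72.8 CPM with *Havcr2* and 21.4, 24.0 and 29.9 CPM without. The groups were far apart and the per-library log2 ratios were 1.26, 1.22 and 1.28 (fitted 1.21 ± 0.07, adjusted p = 1.83e-05, 2.32-fold). *Cd38* rose with it, at 14.5, 16.3 and 21.4 CPM against 10.4, 10.9 and 14 CPM (0.53 ± 0.09, adjusted p = 0.00251), the ratios again alike in each library.

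The rare A2b receptor was the third gene that was higher with *Havcr2*. *Adora2b* was 3.95, 2.35 and 3.71 CPM in *Havcr2*-positive and 0.769, 1.26 and 1.43 CPM in *Havcr2*-negative CD8 T cells (1.40 ± 0.27, adjusted p = 0.00488), without overlap. *Adora2a*, the receptor at the higher level, gave -0.13 ± 0.07 (adjusted p = 0.205). *Nt5e* was lower, at 60.8, 55.7 and 40.9 CPM against 67.9, 70.4 and 58.0 CPM (-0.39 ± 0.07, adjusted p = 0.00460), and *Dpp4* slightly so (-0.23 ± 0.07, adjusted p = 0.0400), both with overlap between the groups. *Ada* did not pass (-0.26 ± 0.15, adjusted p = 0.238).

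The calls of *Nt5e* and *Dpp4* depended on the libraries or cells used. *Nt5e* did not pass among cells of 5000 to 20000 UMIs (-0.09, adjusted p = 0.458), without cycling cells (-0.12, adjusted p = 0.489) or without Kaede-green 2 (-0.37, adjusted p = 0.0517), and *Dpp4* did not pass when any 1 of the libraries was left out (adjusted p = 0.0771 without Kaede-green 1, 0.157 without Kaede-green 2 and 0.112 without Kaede-red). Without the library block *Entpd1* alone passed (*Cd38* 0.54, adjusted p = 0.134; *Adora2b* 1.46, adjusted p = 0.0641), and 155 genes in place of 3371. The cycling list was at 318 to 538 CPM with *Havcr2* and 182 to 425 CPM without, and the median cell held 12356, 12376 and 17509 UMIs with *Havcr2* and 8367.5, 9373 and 11203.5 without. After thinning *Entpd1* was seen in 33 of 441, 111 of 1059 and 271 of 1872 cells with *Havcr2*. Without *Havcr2* it was seen in 89 of 1794, 95 of 2013 and 138 of 2070 cells, a smaller share in each library. Pooled shares were 12.3% (11.2 to 13.5) with *Havcr2* and 5.48% (4.91 to 6.09) without. The pooling mixes the colors, because *Havcr2*-positive cells were more frequent in Kaede-red, and its intervals cover counting error only.

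Among the 89 listed genes, 55 were tested in the CD8 split, 5 were higher with *Havcr2* and 18 lower (1670 and 1701 of all genes tested), with a median of -0.14 against 0.00 over all genes. *Art2b*, encoding an ADP-ribosyltransferase that uses extracellular NAD and so shares its substrate with CD38, was lower (-2.66 ± 0.36, adjusted p = 0.000954), and so was its relative *Art4* (-2.07 ± 0.33). The ADP receptor gene *P2ry12* (1.82 ± 0.36) and the A3 adenosine receptor gene *Adora3* (1.60 ± 0.27, adjusted p = 0.00271) were higher. All 4 were rare, with means of 0.317 to 4.05 CPM in the compared groups, and *Adora3* shares its strand and locus with *Tmigd3*, so its reads are uncertain.

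Tregs against CD4 T cells sets the classes with the highest *Entpd1* and the highest *Nt5e* side by side. *Entpd1* was higher in Tregs in every library with log2 ratios of 1.44, 1.26 and 0.92 (fitted 1.16 ± 0.12, adjusted p = 3.19e-05, 2.23-fold). *Dpp4* was lower, by ratios of -1.56, -1.58 and -1.23 (-1.54 ± 0.18, adjusted p = 7.98e-05), or 2.90-fold. A high *Entpd1* with a low *Dpp4* thus set Tregs apart from CD4 T cells, and neither gene overlapped between them.

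The remaining Treg differences depended on the libraries and cells used. *Nt5e* (-0.50 ± 0.11, adjusted p = 0.00629) and *Adora2a* (-0.53 ± 0.13, adjusted p = 0.0106) were lower in Tregs and *Adora2b* was higher (1.31 ± 0.44, adjusted p = 0.0419), which made 5 of 7 members called where 30.1% of 10085 genes were. *Nt5e* and *Adora2a* did not pass among cells of 5000 to 20000 UMIs (adjusted p = 0.303 and 0.104), without cycling cells (0.161 and 0.0918) or without Kaede-green 2 (0.134 and 0.213). *Adora2b* rested on 1, 9 and 6 UMIs in the CD4 T cells and was not called without Kaede-green 1 (0.89, adjusted p = 0.168) or without Kaede-green 2 (1.57, adjusted p = 0.0933). *Ada* was 0.77 ± 0.32 (adjusted p = 0.0877) and without Kaede-red 1.17 (adjusted p = 0.0241). *Cd38* was 0.09 ± 0.34 (adjusted p = 0.877). With the cells of several classes and those with markers of other lineages kept it turned to -0.91 (adjusted p = 0.0346). The part of either kind of cell in this turn was not tested. The cycling list was at 369 to 484 CPM in Tregs and 94.8 to 234 CPM in CD4 T cells.

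Of the listed genes 46 were tested here, 3 were higher in Tregs and 19 lower (1484 and 1555 of all genes tested), with a median of -0.32 against -0.01 over all genes. The ATP-gated channel gene *P2rx7* was lower in Tregs (-2.86 ± 0.41, adjusted p = 0.000318), as were the NAD synthesis genes *Nmrk1* (-2.21 ± 0.17) and *Nmnat2* (-1.99 ± 0.38) and the phosphodiesterase gene *Pde3b* (-1.89 ± 0.14, adjusted p = 5e-06). *Nmrk1* fell from a mean of 76.7 ± 23.4 CPM in CD4 T cells to 16.5 ± 0.317 CPM (SD, n = 3). The P2X4 gene *P2rx4* and the NAD-related genes *Nadk* and *Naprt* were the 3 that were higher.

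CD8 T cells and NK cells, the 2 largest classes among these sorted cells, differed in *Dpp4*, *Cd38* and *Ada*. *Dpp4* was 17.2-fold higher in CD8 T cells (4.10 ± 0.30, adjusted p = 0.000530), with log2 ratios of 4.21, 3.34 and 5.08. *Cd38* was higher (0.97 ± 0.17, adjusted p = 0.00915) and *Ada* lower (-0.84 ± 0.12, adjusted p = 0.00505) in CD8 T cells, without overlap. Called were 3 of 7 members, where 29.7% of 12859 genes were.

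*Entpd1* and *Adora2a* did not have one difference between CD8 T and NK cells but a different one in each library. For *Entpd1* the log2 ratios were 0.34, 0.93 and 2.98, and the fit over all 3 gave 1.35 ± 0.47 (adjusted p = 0.0849). For *Adora2a* they were -1.09, -0.52 and 0.59, so NK cells were higher in both Kaede-green libraries and lower in Kaede-red (-0.40 ± 0.28, adjusted p = 0.339). Without Kaede-red both passed (*Entpd1* 0.64, adjusted p = 0.00110; *Adora2a* -0.81, adjusted p = 0.000138), as did *Nt5e* (0.26, adjusted p = 0.00912; 0.22 ± 0.07 with all 3, adjusted p = 0.0679). Without Kaede-green 1 *Entpd1* gave 1.89 (adjusted p = 0.00894). *Adora2b* was -0.25 ± 0.18 (adjusted p = 0.359).

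The list had 58 genes tested between CD8 T and NK cells, 12 higher in CD8 T cells and 15 lower (1970 and 1852 of all genes tested), with a median of -0.03 against -0.01 over all genes. *Nmrk1*, a nicotinamide riboside kinase of NAD synthesis, was at 101 ± 13.5 CPM in CD8 T cells and 16.2 ± 1.73 CPM in NK cells (SD, n = 3; 2.58 ± 0.11, adjusted p = 0.000129). *Art2b* (3.94 ± 0.33) and *Adora3* (3.94 ± 0.37) were also higher, and *Enpp5* (-2.87 ± 0.24) was lower.

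γδ T cells had less of 4 members than CD4 T cells. *Entpd1* was 5.37-fold lower (-2.43 ± 0.34, adjusted p = 0.000197), with log2 ratios of -2.30, -1.20 and -3.74. In the γδ T cells *Entpd1* rested on 10, 19 and 10 UMIs and *Dpp4* on 12, 15 and 9. *Adora2a* was lower by 2.60-fold (-1.38 ± 0.19, adjusted p = 0.000182), and *Dpp4* (-1.52 ± 0.31, adjusted p = 0.00373) and *Nt5e* (-0.71 ± 0.15, adjusted p = 0.00496) were lower too, all 4 without overlap. Without Kaede-green 1 *Dpp4* (-1.24, adjusted p = 0.0910) and *Nt5e* (-0.54, adjusted p = 0.112) no longer passed. *Ada* was 0.59 ± 0.41 (adjusted p = 0.399), and *Adora2b* and *Cd38* had too few UMIs. In this comparison 17.3% of 8547 genes passed.

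Of the listed genes 38 were tested in the γδ comparison, 7 were higher in γδ T cells and 4 lower (821 and 660 of all genes tested), with a median of 0.03 against -0.01 over all genes. The nucleoside transporter gene *Slc28a2*, which overlaps a pseudogene on its strand, was lower (-1.97 ± 0.32, adjusted p = 0.000643), and so was adenosine kinase, *Adk* (-1.87 ± 0.21, adjusted p = 2.6e-05). *Enpp1* was lower (-1.41 ± 0.38) and *Entpd5* higher (1.22 ± 0.28).

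Time in the tumor was read from the Kaede color. A gene was called between colors where the Kaede-red level was at least 1.5-fold above or below both Kaede-green libraries and both ratios were larger than the ratio of the Kaede-green libraries to each other; no test was run, because Kaede-red is 1 library. In NK cells 4 members were called. *Entpd1* in Kaede-red was 0.295 and 0.351 times its level in Kaede-green 1 and Kaede-green 2, *Adora2a* 0.253 and 0.350 times and *Dpp4* 0.399 and 0.215 times, whereas *Adora2b* was 1.66 and 2.00 times as high. By the same rule 20.9% of 12654 genes were called in NK cells, 747 higher and 1896 lower. *Dpp4* in NK cells rested on 38, 99 and 48 UMIs, and T cell markers in the same NK cells moved with it: the CD8 list (5 genes, none at 0) was at 118, 174 and 69.9 CPM and the CD4 list (5 genes, none at 0) at 104, 135 and 56.5 CPM. Their part in the *Dpp4* ratios was not tested.

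The share of the NK states differs between the colors, as their cell numbers show. Within *Itga1*-positive cells the CPM of *Entpd1* was still lower in Kaede-red, at 0.598 and 0.422 times. *Adora2a* was at 0.443 and 0.512 times. *Dpp4* was at 0.233 and 0.286 times on 13, 20 and 30 UMIs. *Adora2b* was at 1.81 and 1.87 times on 7, 13 and 131 UMIs. Of 11480 genes tested in this state 270 were called higher and 917 lower. Its median cell held 9446, 11956 and 24450 UMIs, so CPM and cell shares can differ. *Entpd1* was seen in 8 of 312, 17 of 484 and 24 of 1523 cells after thinning, a smaller share in Kaede-red. Without thinning it was seen in 27, 71 and 178 of them, with the Kaede-red share between the Kaede-green ones. Within *Itgam*-positive cells *Entpd1* was called lower, at 0.383 and 0.445 times on 123, 94 and 11 UMIs. *Adora2a* was at 0.597 and 0.755 times there, short of a call. Of 8203 genes tested in the *Itgam*-positive state 380 were called higher and 1034 lower. The median NK cell held 6119, 8142 and 17231.5 UMIs. Cells of 5000 to 20000 UMIs were compared over all NK cells, not within the states. Their mean log2 ratio was -0.97 for *Entpd1* (-1.64 over all cells), -1.31 for *Adora2a* (-1.75) and -1.47 for *Dpp4* (-1.77), all still called. For *Adora2b* it was 0.54 (0.87), no longer called. *Cd38* in *Itgam*-positive cells (0.479 and 0.523 times) rested on 21, 17 and 2 UMIs.

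In the T cell classes fewer members were called between colors. *Entpd1* in CD8 T cells was 1.84 and 1.46 times as high in Kaede-red as in Kaede-green 1 and 2, in CD4 T cells 1.99 and 1.45 times and in Tregs 1.39 and 1.15 times, none of them past the 1.5-fold rule, and in NK cells it went the opposite way. In γδ T cells it was also lower, at 0.734 and 0.25 times on 10, 19 and 10 UMIs, short of a call. Within *Havcr2*-negative CD8 T cells the *Entpd1* ratios were 1.40 and 1.25, and within *Havcr2*-positive cells 1.42 and 1.30. *Adora2b* was called higher in CD8 T cells (1.65 and 1.58 times; 11.8% of 13133 genes called), but not among cells of 5000 to 20000 UMIs and in neither *Havcr2* state, with ratios of 0.924 and 1.56 in *Havcr2*-positive and 1.82 and 1.13 in *Havcr2*-negative cells. *Havcr2*-positive cells, which held more *Adora2b*, numbered 441, 1059 and 1872 of the 2237, 3072 and 3942 CD8 T cells. *Nt5e* was at 0.732 and 0.751 times in CD8 T cells and at 0.738 and 0.699 times in NK cells, below the rule. In CD4 T cells *Ada* was called higher (2.10 and 2.73 times) on 12, 12 and 14 UMIs, where 9.81% of 9242 genes were called, and the Treg list was at 2402 CPM in Kaede-red CD4 T cells against 1385 in Kaede-green 1 and 1598 in Kaede-green 2; its part in the *Entpd1* and *Ada* ratios was not tested. No member was called in Tregs (5.55% of 10707 genes) or in γδ T cells (5.70% of 7988 genes).

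**Figure D3:**
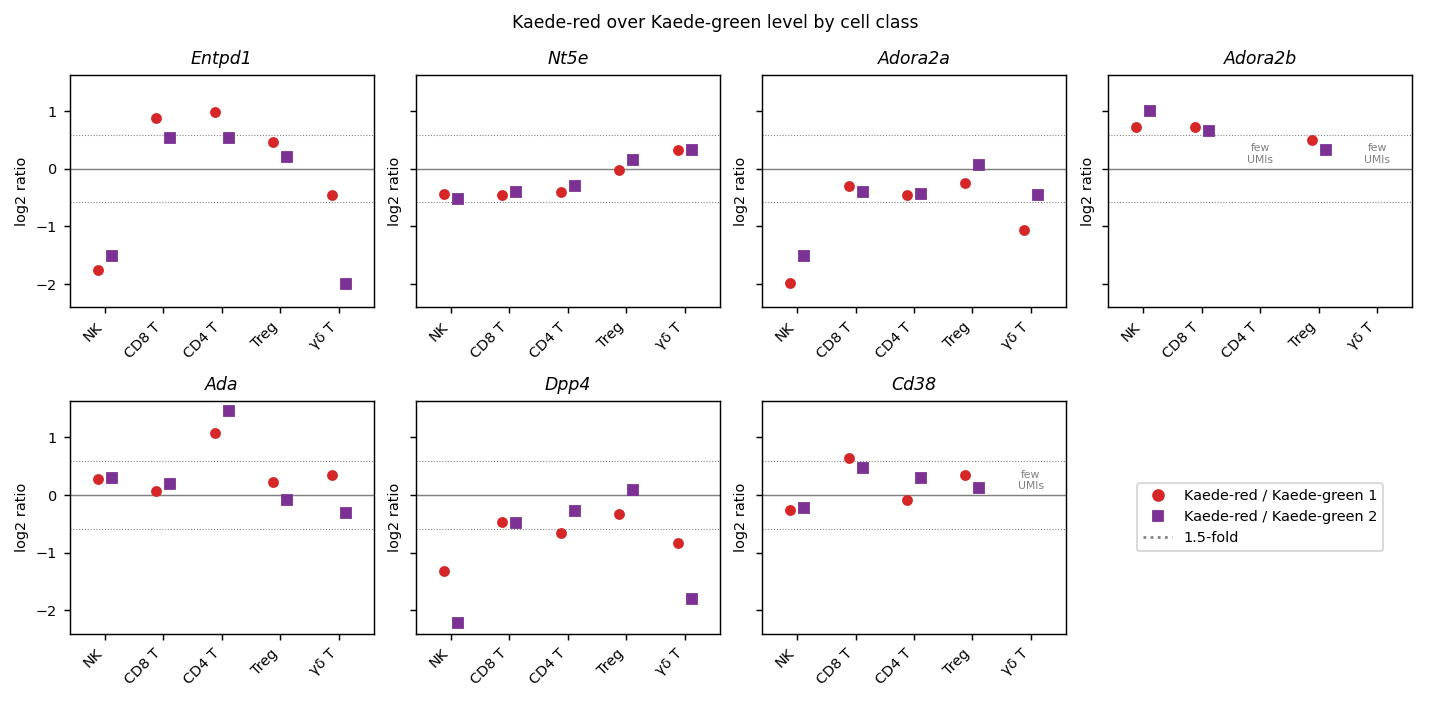
Log2 ratio of the Kaede-red level to each Kaede-green library for the 7 genes in 5 classes (circles, over Kaede-green 1; squares, over Kaede-green 2; dotted lines, 1.5-fold), with classes under 30 UMIs left out. *Entpd1* is below 0 in NK cells (0.295 and 0.351 times) and above 0 in CD8 T cells (1.84 and 1.46 times).

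The listed genes had 53 members tested between colors in NK cells, 4 called higher and 14 lower in Kaede-red. Over all 12654 genes tested there, 747 were called higher and 1896 lower. The median log2 ratio was -0.24 in the list against -0.15 over all genes. *Slc29a1* was among the higher and *Panx1*, *Enpp4*, *Pde8a*, *Crem*, *Nr4a1* and *Nr4a3* among the lower. In CD8 T cells 4 of 61 were called higher, *Adora3* with them, and 10 lower, *Art2b* and *Art4* among these. Over all 13133 genes tested in CD8 T cells, 581 were called higher and 964 lower. The median log2 ratio there was -0.09 in the list against -0.00 over all genes. The color and class comparisons use the same libraries.

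The members did not share one pattern. Over 21 sums, 7 classes in each of 3 libraries, Pearson correlations of log2 levels between members ran from -0.52 (*Ada* with *Dpp4*) to 0.63 (*Nt5e* with *Dpp4*), and *Entpd1* with *Nt5e* gave 0.27. Sums of a library share its depth and sums of a class its cells, so these values only describe likeness. Among about 5140 genes of at least 20 CPM, the genes most like *Entpd1* were *Rap1a* (r = 0.91), *Nt5c* (0.91), itself a nucleotidase gene of the cytosol, and *P4ha1* (0.90). *Nt5e* was nearest to *Tbc1d4* (0.91), *Paip1* (0.90) and *Tnfaip8* (0.90), and *Adora2a* to *Adgre5* (0.92), *Nab1* (0.91) and *Agpat3* (0.89). *Dpp4* followed T cell receptor genes and their signaling, *Trbc2* (0.96) and *Themis* (0.95), and *Gdi2* (0.94).

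For the low genes likeness was weaker or rested on few UMIs. *Adora2b* was nearest to *Snx9*, *Lamtor4* and *Psma1* (0.89 each), *Cd38* to *Pcmt1* (0.88), *Slc30a9* (0.85) and *Ifi27* (0.84), and *Ada* to *Myo1e* (0.75), *Tmed10* (0.73) and *Sod2* (0.68).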

How the data were processed

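Droplet 3′ libraries of sorted TILs were used as deposited. The tables deposited by the authors hold whole UMI counts for each gene in each barcode that Cell Ranger called a cell (version 6.1.2 per the submitters' processing notes, 6.0.1 in the file headers, with mm10), without normalization. The members and lists were chosen with earlier results of these data known. Kept were cells of 1000 to 6000 genes whose mitochondrial share was under 7.5%. Classes followed UMI rules (*Ncr1* at least 1 and *Cd3e* at most 1 for NK cells; *Cd3e* at least 2 for T cells and 1 for γδ T cells; other gate genes at least 1), and cells of several classes were left out in place of a doublet caller. The libraries shared 20 to 36 cell barcodes in pairs.

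UMIs were summed per library and class and tested with edgeR 4.0.16 (quasi-likelihood, TMM, filterByExpr, R 4.3.3), the library as a block, with Benjamini-Hochberg adjustment over all genes tested and a threshold of 0.05. Classes of 1 library come from the same tumors, so the sums are paired by construction. SE is the log2 fold change over the square root of F. Nothing in the labels says that the libraries came from separate mice beyond "biol rep" for Kaede-green, so p-values measure the spread of these 3 libraries. Per-library log2 ratios and color ratios had 0.5 added to each count. Thinning drew UMIs at random with a fixed seed. The test was also run on simulated counts with a fixed dispersion and no library effect. Such counts lack the pairing of these sums, so they cannot show how well the p-values hold here. Named genes were the 7 members, the 4 listed genes with the largest change past the threshold in the same direction in all 3 libraries, and the 3 genes most like each member. *Crem*, *Nr4a1*, *Nr4a2*, *Nr4a3*, *Pnp*, *P2rx4*, *Nadk* and *Naprt*, and the listed genes named between colors, were chosen after their values were seen. Of the 89 listed genes 88 were in the tables. Of the table's genes 99.6% were found in GENCODE M21, the source of coordinates, and 6 members, all but *Adora2a*, had a start in the RefSeq promoter table (GRCm38.p6). Alternatives were RLE factors, DESeq2 1.42.0, no low-count filter, no block, each library left out, other cell filters, Scrublet (scanpy 1.11.5) and stricter gates.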

Additional observations from a re-analysis of the deposited data

Results flagged for a closer look

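*Entpd1* moved in opposite directions with the Kaede color in different classes of the same libraries. In NK cells the Kaede-red level was 0.295 times that of Kaede-green 1 and 0.351 times that of Kaede-green 2. In CD8 T cells it was 1.84 and 1.46 times, in CD4 T cells 1.99 and 1.45 times, and in Tregs 1.39 and 1.15 times. Each of these ratios was beyond counting error, but with 1 Kaede-red library the difference between classes was not tested. Counting error leaves out the spread between libraries. On the log2 scale Kaede-green 2 over Kaede-green 1 was -0.25 in NK cells, 0.34 in CD8 T cells, 0.45 in CD4 T cells and 0.27 in Tregs. Kaede-red over Kaede-green 2 was -1.51, 0.54, 0.54 and 0.21 in the same classes. In Tregs the color ratio was thus within the spread of the Kaede-green libraries. In γδ T cells the ratios were 0.734 and 0.25, on 10, 19 and 10 UMIs, and did not both pass counting error. The CD8 to NK ratio of *Entpd1* was accordingly 0.34 and 0.93 on the log2 scale in the Kaede-green libraries and 2.98 in Kaede-red. No group had enough libraries for a check of single outlying samples.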

How the results depend on the processing

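The alternative with cells of several classes kept also kept the cells with markers of other lineages. Of the fitted changes of members, 373 of those under the alternatives kept their direction and side of the threshold, 32 fell below it, 13 rose above it and 10 turned. The turned values were small or not called in the comparison itself: *Cd38* in the NK split, -0.05 with no cell quality filter, -0.07 among cells of 5000 to 20000 UMIs, -0.04 without cycling cells, -0.02 with no block, -0.07 to 0.15 with 1 library left out (lowest without Kaede-red) and -0.04 with total UMIs as the scaling; *Adora2a* in the CD8 split, 0.09 among cells of 5000 to 20000 UMIs and 0.09 without cycling cells; and *Cd38* between Tregs and CD4 T cells, -0.91 with cells of several classes kept and -0.08 to 0.30 with 1 library left out (lowest without Kaede-green 2). The scaling by total UMIs was chosen after seeing the data; it moved the median of all genes by less than 0.1 on the log2 scale in each comparison.

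Counts of genes called moved by over 1.5 times as follows. Among cells of 5000 to 20000 UMIs 1620 genes were called in the NK split (3553 in the main result), 2147 in the CD8 split (3371) and 1877 between Tregs and CD4 T cells (3039), and without cycling cells 2153 and 1807 in the first and last of these. DESeq2 called 2170, 2095, 1600 and 717 genes in the NK split, the CD8 split, the Treg and the γδ comparison (1481). With cells of several classes kept, 1072 and 926 were called in the Treg and γδ comparisons. Members called between Tregs and CD4 T cells went from 5 to 3 with cells of several classes kept, among cells of 5000 to 20000 UMIs and with DESeq2, and to 2 without cycling cells. Leaving out 1 library gave 2350 to 3952 genes in the NK split, 1835 to 3035 in the CD8 split, 1622 to 3525 in the Treg, 2380 to 5357 in the CD8 to NK (3822) and 920 to 1392 in the γδ comparison, and 2 to 3, 3 to 4, 2 to 6, 3 to 6 and 2 to 4 members. Between colors, genes called over the 5 classes went from 6144 to 2063 at 2-fold and to 10894 to 12170 without 1 Kaede-green library, where the rule has only 1 ratio to meet, and members called from 6 to 8 to 12. The causes of the other moves were not tested.

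Without the library as a replicate block, 155 genes and 1 member were called in the CD8 split and 1790 genes between CD8 T and NK cells; the other 3 comparisons gave 2569, 2290 and 1039 genes. The highest class changed for *Ada* or *Adora2a* alone under other cell filters, and for *Nt5e* and *Ada* without thinning. Depth limits *Adora2b*, *Ada* and *Cd38* most, which rest on under 20 UMIs in several sums of CD4 T and γδ T cells. *Entpd1* and *Dpp4* were also under 20 UMIs in each γδ T cell sum, and *Dpp4* had 2, 5 and 0 UMIs in *Itgam*-positive NK cells.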
